A study of Mus musculus with 13 samples.

Results

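Lmo2, Tal1 and 8 further factors of blood stem and progenitor cells (Lyl1, Ldb1, Gata2, Gfi1, Gfi1b, Hhex, Meis1 and Flt3) were followed in a mouse pre-B cell line given Ikaros, a zinc-finger DNA-binding protein of lymphocytes encoded by Ikzf1. The 10 genes were selected on earlier results from these arrays, through the comparisons Ikaros over 159A at 48 h and Ikaros-ERt2 at 2 h and 6 h over vector-ERt2, so their changes in those comparisons are given as a description. All probe sets annotated to their symbols were taken, 13 on the Affymetrix 430 2.0 array and 10 on the Mouse Gene 1.0 ST array, out of 18194 and 19938 genes with a probe set of their own.

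Total RNA came from B3, an established pre-B cell line, transduced with mouse stem cell virus vectors that also carried GFP behind an internal ribosomal entry site. On 430 2.0, 2 arrays came from cells with HA-tagged wild-type Ikaros and 2 from cells with HA-tagged 159A, an Ikaros mutant that does not bind DNA, all taken 48 h after infection. On Gene 1.0 ST, 3 arrays came from cells with Ikaros-ERt2, a fusion to the hormone-binding domain of the estrogen receptor, after 2 h of 4-hydroxytamoxifen, 3 from the same kind of cells after 6 h, and 3 from cells with the vector-ERt2 construct after 6 h. No empty-vector group is used at 48 h, no unexposed Ikaros-ERt2 group is used, and the 2 h group has no vector group of the same exposure time. All groups are 1 cell line, and the Ikaros constructs come on top of any Ikaros the line makes. The title of vector-ERt2 replicate 1 names the vector, but another of its label fields gives the Ikaros-ERt2 construct.

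LMO2 is a LIM-only protein that does not bind DNA itself and bridges a complex of a basic helix-loop-helix protein (TAL1 or its relative LYL1, paired with an E protein), a GATA factor and the LIM-binding protein LDB1. That complex is known for its place in blood stem cells and the red-cell and platelet lineages, and forced LMO2 or TAL1 expression is a known event in T-cell leukaemia. GFI1 and GFI1B are related zinc-finger repressors, HHEX and MEIS1 are homeobox proteins, and FLT3 is a cytokine receptor of early progenitors. In normal B-cell development the stem-cell programme is largely shut before the pre-B stage.

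Promoters of 4 of the 6 genes that passed the threshold at 48 h are shown because Ikaros binds DNA at sites built around GGGAA. RefSeq promoter entries of build GRCm38.p6 matched 9 of the 10 genes, all but Lmo2, with 14 entries in all. The 250 bases before the start site follow for Tal1 at chr4:115056176-115056425 (plus strand), Gfi1b at chr2:28621983-28622232 (minus strand), Lyl1 at chr8:84701207-84701456 (plus strand) and Hhex at chr19:37434591-37434840 (plus strand), each 5′ to 3′. Capitals mark GGGAA or its reverse complement TTCCC.
Tal1: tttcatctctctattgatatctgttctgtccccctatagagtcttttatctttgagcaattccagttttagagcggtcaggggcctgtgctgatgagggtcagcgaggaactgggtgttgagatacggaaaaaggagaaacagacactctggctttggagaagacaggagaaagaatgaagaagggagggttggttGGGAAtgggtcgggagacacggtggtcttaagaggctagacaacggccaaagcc
Gfi1b: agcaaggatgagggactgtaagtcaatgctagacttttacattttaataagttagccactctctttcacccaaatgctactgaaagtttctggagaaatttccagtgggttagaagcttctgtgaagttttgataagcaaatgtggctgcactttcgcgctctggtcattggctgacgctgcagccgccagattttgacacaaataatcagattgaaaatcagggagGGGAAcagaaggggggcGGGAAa
Lyl1: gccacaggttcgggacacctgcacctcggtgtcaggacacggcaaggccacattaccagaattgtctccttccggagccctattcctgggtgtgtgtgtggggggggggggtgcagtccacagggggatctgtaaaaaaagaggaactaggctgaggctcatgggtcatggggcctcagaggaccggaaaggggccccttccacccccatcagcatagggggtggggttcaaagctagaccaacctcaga
Hhex: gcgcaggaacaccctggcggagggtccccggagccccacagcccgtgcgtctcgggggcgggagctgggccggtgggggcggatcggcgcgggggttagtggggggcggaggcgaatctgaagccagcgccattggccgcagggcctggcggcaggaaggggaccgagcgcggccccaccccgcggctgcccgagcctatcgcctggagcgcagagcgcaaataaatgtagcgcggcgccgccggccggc

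The Tal1 window holds 1 GGGAA, 54 bases before the start site, and the window of a second Tal1 start at chr4:115057561-115057810 also holds 1, at 46 bases. The Gfi1b window holds 2, at 23 and 6 bases. The Lyl1 and Hhex windows hold neither GGGAA nor TTCCC. The start site used for Lyl1 lies inside the gene span given below, which begins at chr8:84701423, so the end of its window overlaps that span. Flt3, which rose, also passed, and its window, not printed here, holds 1 TTCCC 73 bases before the start site. Ldb1, Gata2 and Meis1, which did not pass or were not tested, have windows with such strings too, and Gfi1 has none. Of all 32851 promoter entries, 56.2% hold at least 1 of these 2 strings in a window of the same length. The E-box CANNTG, the kind of site that TAL1 and LYL1 bind with an E protein, was matched at CACCTG 235 bases before the Lyl1 start and at CAAATG 180 and 113 bases before the Gfi1b start, against 66.2% of all entries. A GATA match, GATAA or its reverse complement TTATC, stood 205 bases before the Tal1 start and 119 bases before the Gfi1b start, against 22.6% of all entries. The Flt3 window holds the E-box CAGATG at 245 bases and no GATA match. Both strands were searched, the motifs did not overlap in these windows, and a match in letters is no measured site.

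Values are deposited log2 units throughout, and a level is compared only with the same probe set on arrays of the same type. On 430 2.0 many values sit at a floor, with a lowest value of 2.192, so that a group whose arrays or mean lie within 1 log2 unit of it has only an upper limit, and the fold is then a bound. Ikzf1 itself, as a check of the labels, averaged 13.28 ± 0.10 in Ikaros-ERt2 2 h, 13.26 ± 0.04 in Ikaros-ERt2 6 h and 9.27 ± 0.12 in vector-ERt2 6 h arrays (SD, n = 3 each), and vector-ERt2 replicate 1 had 9.16. At 48 h, where both groups carry an Ikaros construct, one Ikzf1 probe set averaged 12.04 in Ikaros and 11.71 in 159A arrays and the other 4.44 and 12.78. Of the B-lineage marker list, 14 of 14 genes on 430 2.0 and 12 of 15 on Gene 1.0 ST were above the low-value filter in every group.

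At 48 h after infection Lmo2, Tal1, Lyl1 and Gfi1b were lower with Ikaros than with 159A, and Hhex and Flt3 were higher. Of the 10 genes, 8 were bright enough to be tested and 6 passed the threshold of the fit over all genes (limma, Benjamini-Hochberg adjusted p under 0.05), 2 higher and 4 lower, where 14.8% of all 10916 genes tested passed. The median log2 change of those 8 genes was -1.14, against 0 over all genes tested. As the genes were selected on this comparison, these counts describe them and are no test.

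**Figure D1:**
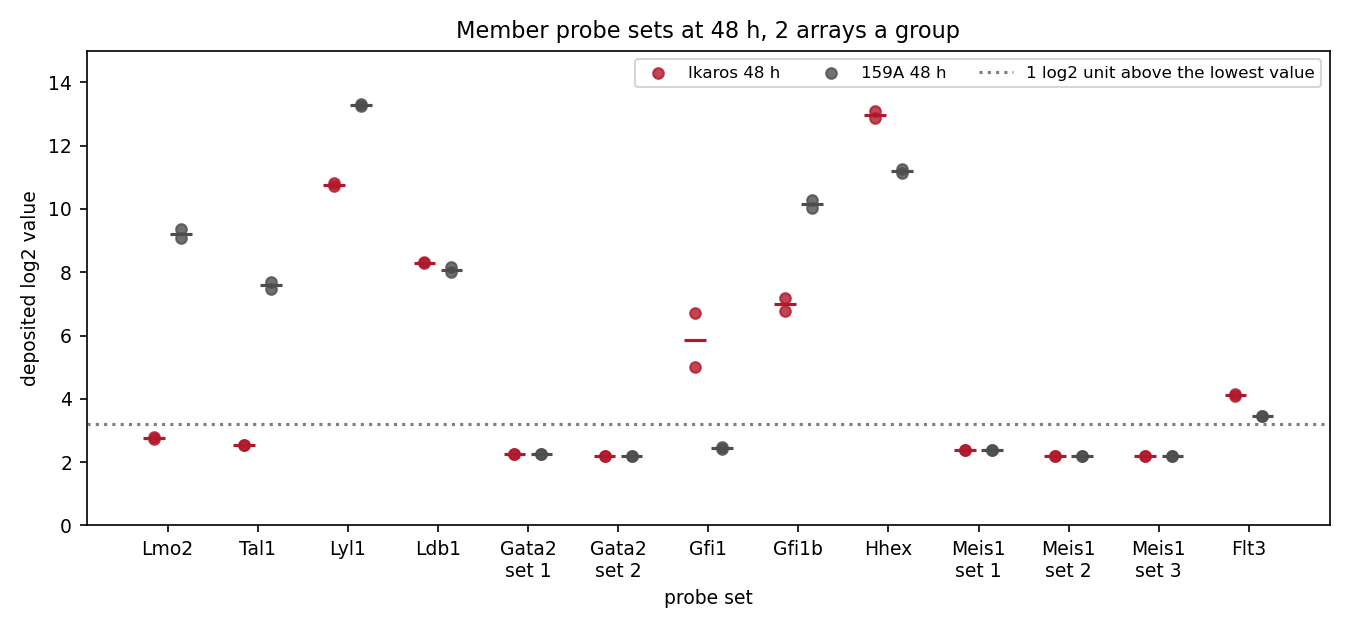
Deposited log2 values of the 13 probe sets on the 430 2.0 array at 48 h, for 2 Ikaros arrays (red) and 2 159A arrays (grey), with a short line at each group mean and a dotted line 1 log2 unit above the lowest value. Lmo2 and Tal1 lie under the dotted line in both Ikaros arrays and far above it in both 159A arrays, while the Gata2 and Meis1 probe sets lie under it in all arrays.

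Lmo2 (chr2:103957903-103981878) had 2.79 and 2.74 in Ikaros arrays, against 9.37 and 9.07 in 159A arrays. Both Ikaros arrays were near the floor, and the groups were far from overlapping. The log2 change was -6.45 ± 0.14 (SE), which is at least 65.2-fold lower in Ikaros cells. Because RNA came from bulk cells, fewer cells of a type and less RNA per cell cannot be told apart here or below.

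Tal1 (chr4:115056426-115071755), the helix-loop-helix partner held by LMO2, had 2.53 in both Ikaros arrays, against 7.48 and 7.69 in 159A arrays. Ikaros cells again lay near the floor and 159A cells well above it. The log2 change of -5.06 ± 0.10 is at least 21-fold lower. The equal Ikaros values mean that the spread behind this SE came from the 159A arrays alone. Values equal within 0.001 in the arrays of a group were found for 12.1% of the genes tested.

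Lyl1 (chr8:84701423-84704716), the close relative of Tal1, had 10.72 and 10.82 in Ikaros arrays, against 13.24 and 13.32 in 159A arrays. It was lower with Ikaros in both arrays but stayed far above the floor. The log2 change was -2.51 ± 0.08, 5.69-fold lower. Ldb1 (chr19:46031525-46048145), the self-associating adaptor that joins such complexes, had 8.29 and 8.31 in Ikaros arrays, against 8.16 and 8.0 in 159A arrays. Its log2 change of 0.22 ± 0.09 did not pass the threshold.

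Gata2 (chr6:88193891-88207032), the GATA factor of stem and progenitor cells, was at the floor with both probe sets, at 2.26 and 2.19 on each of the 4 arrays. Meis1 (chr11:18880428-19019651), a partner of HOX proteins, was likewise at 2.37, 2.19 and 2.19 with its 3 probe sets on each array. Neither passed the low-value filter, so the arrays gave no measure of a change for either.

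Of the related repressors, Gfi1b passed the threshold and Gfi1 did not. Gfi1b (chr2:28609450-28621982), best known in red-cell and platelet precursors, had 7.17 and 6.79 in Ikaros arrays, against 10.27 and 10.04 in 159A arrays. The log2 change was -3.18 ± 0.20, 9.05-fold lower, with no overlap. Gfi1 (chr5:107716655-107725805), which acts in stem cells, lymphocytes and granulocytes, had 6.71 and 5.0 in Ikaros arrays, against 2.47 and 2.41 in 159A arrays near the floor. The mean difference of 3.41 ± 0.72, at least 6.32-fold higher, did not pass the threshold. The Ikaros arrays lay far apart. Without Ikaros replicate 1 the difference was 2.56, at least 3.5-fold, and without replicate 2 it was 4.26, at least 11.4-fold.

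Hhex (chr19:37434841-37440731), a homeobox repressor used in early lymphoid development, had 13.09 and 12.86 in Ikaros arrays, against 11.25 and 11.13 in 159A arrays. It was higher in both Ikaros arrays, with a log2 change of 1.79 ± 0.12, 3.45-fold. Flt3 (chr5:147330741-147400489), the receptor for FLT3 ligand, had 4.16 and 4.10 in Ikaros arrays, against 3.45 in both 159A arrays. Its log2 change of 0.68 ± 0.06, 1.60-fold, passed the threshold with a spread taken from the Ikaros arrays alone. Both groups lay close to the floor.

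With 2 arrays a group, a fit without 1 array has only 1 array left in that group. It cannot show which array a call at 48 h rests on. Leaving out any 1 of the 4 arrays, or taking the replicate number as a block, left 0 of the 10 genes and 0 of all genes past the threshold. Without 1 array the log2 change ran from -6.60 to -6.30 for Lmo2, from -5.16 to -4.96 for Tal1, from -2.56 to -2.46 for Lyl1, from -3.37 to -2.98 for Gfi1b, from 1.67 to 1.90 for Hhex and from 0.66 to 0.71 for Flt3. The adjusted p of these 6 genes was then 0.0807 to 0.211.

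On the Gene 1.0 ST arrays the same genes were read within hours of switching Ikaros-ERt2 on. Hhex was higher than in vector-ERt2 cells at 2 h and 6 h, and Lmo2 and Gfi1b were lower at 6 h. Of 9 genes tested (Meis1 was under the filter), 1 passed the threshold at 2 h over vector, in the higher direction, where 1.86% of all 11963 genes tested passed. At 6 h over vector 3 of 9 passed, 1 higher and 2 lower, where 5.78% of all genes did. The median log2 change of the 9 genes was -0.2 at 2 h and -0.11 at 6 h, against -0.01 and 0 over all genes tested. Both comparisons use the same vector-ERt2 arrays, and the genes were selected on both, so these counts too are descriptions.

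**Figure D2:**
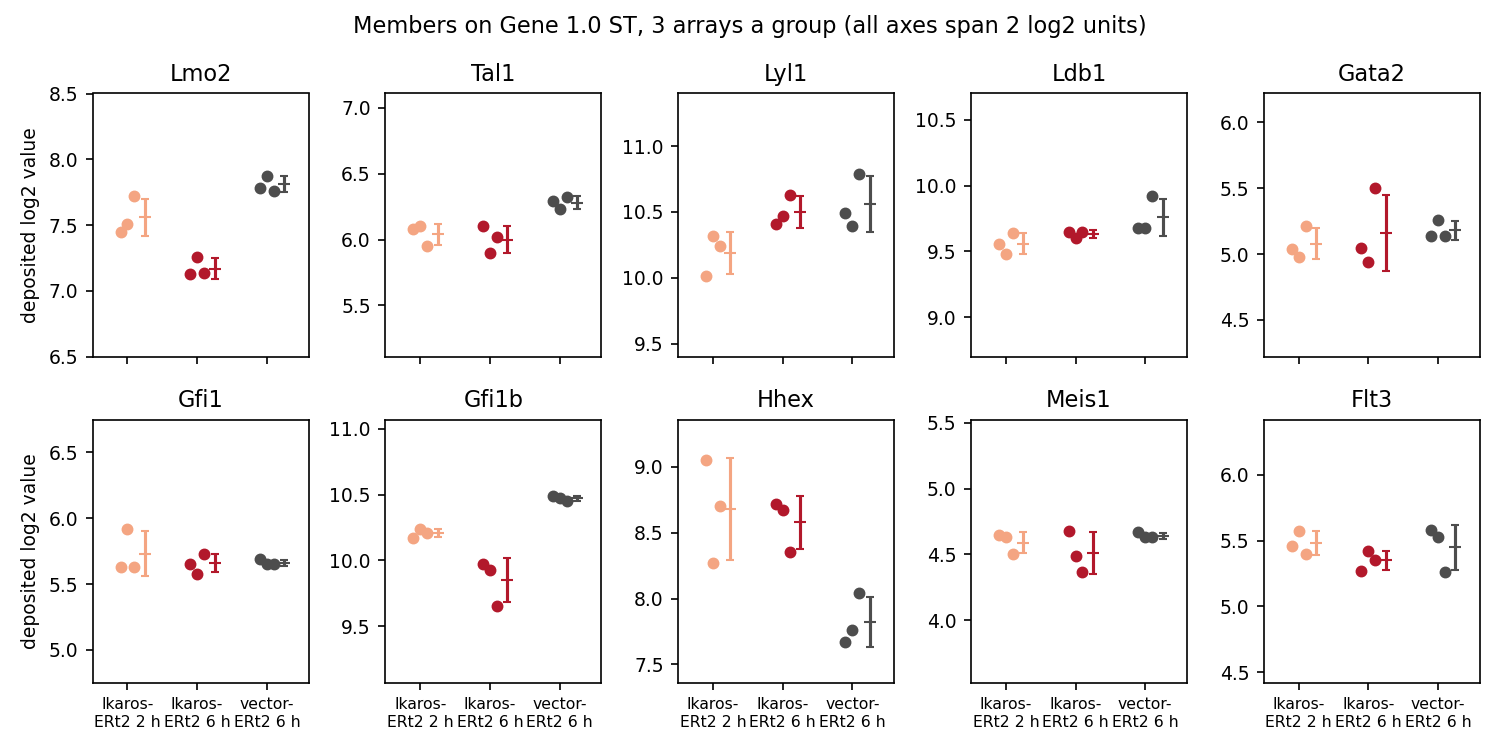
Deposited log2 values of the 10 genes on the Gene 1.0 ST array, 1 panel a gene, all panels spanning 2 log2 units. Points are 3 arrays each of Ikaros-ERt2 2 h, Ikaros-ERt2 6 h and vector-ERt2 6 h, and the bars give the mean ± SD. Lmo2 and Gfi1b lie lowest at 6 h, and Hhex lies above the vector arrays at 2 h and 6 h.

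Lmo2 had 7.45, 7.51 and 7.72 in Ikaros-ERt2 2 h arrays and 7.13, 7.26 and 7.14 in 6 h arrays, against 7.78, 7.87 and 7.76 in vector-ERt2 arrays. The 3 groups did not overlap, and the order was 6 h lowest, 2 h between and vector highest. The log2 change over vector was -0.63 ± 0.08 at 6 h, 1.55-fold lower, and passed the threshold. For 2 h it was -0.25 ± 0.08 and did not. The change between 6 h and 2 h, the difference of these values on the same arrays and so no independent measure, was -0.38 ± 0.08. It did not pass the threshold of the fit, nor did it under 15 of 16 alternatives. In limma, 0 of the 9 genes passed between 6 h and 2 h, where 0.903% of all genes did. An unadjusted p under 0.05 was found for 3 of the 9, and for 1629 of all 11963 genes tested.

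Tal1 had 6.08, 6.10 and 5.95 in Ikaros-ERt2 2 h arrays and 6.10, 5.90 and 6.02 in 6 h arrays, against 6.29, 6.23 and 6.32 in vector-ERt2 arrays. All 6 Ikaros-ERt2 arrays lay below all 3 vector arrays, and the 2 times overlapped each other. The log2 changes of -0.24 ± 0.08 at 2 h and -0.28 ± 0.08 at 6 h did not pass the threshold. The change between 6 h and 2 h was -0.04 ± 0.08.

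Lyl1 had 10.01, 10.32 and 10.24 in Ikaros-ERt2 2 h arrays and 10.41, 10.47 and 10.63 in 6 h arrays, against 10.49, 10.39 and 10.79 in vector-ERt2 arrays. The 2 h arrays lay lowest, and the 6 h arrays lay among the vector arrays. Neither -0.37 ± 0.12 at 2 h nor -0.06 ± 0.12 at 6 h passed the threshold, and between 6 h and 2 h the change was 0.31 ± 0.12. Ldb1 lay between 9.48 and 9.64 at 2 h, between 9.60 and 9.65 at 6 h and between 9.68 and 9.92 in vector-ERt2 arrays. Its log2 changes of -0.20 ± 0.08 at 2 h and -0.12 ± 0.08 at 6 h did not pass.

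Gata2 lay between 4.98 and 5.21 at 2 h, between 4.94 and 5.5 at 6 h and between 5.14 and 5.26 in vector-ERt2 arrays. The groups overlapped, with log2 changes of -0.11 ± 0.13 at 2 h and -0.02 ± 0.13 at 6 h that did not pass. Meis1 lay between 4.50 and 4.65 at 2 h, between 4.37 and 4.68 at 6 h and between 4.63 and 4.67 in vector-ERt2 arrays, under the filter. Gata2 passed the filter on this array type alone.

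Gfi1b had 10.17, 10.24 and 10.21 in Ikaros-ERt2 2 h arrays and 9.97, 9.93 and 9.65 in 6 h arrays, against 10.49, 10.47 and 10.45 in vector-ERt2 arrays. The 3 groups followed the order of Lmo2, 6 h lowest and vector highest, without overlap. The log2 change over vector was -0.62 ± 0.09 at 6 h, 1.53-fold lower, and passed. For 2 h it was -0.26 ± 0.09 and did not pass. Between 6 h and 2 h it was -0.35 ± 0.09, which did not pass either.

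Gfi1, the relative that was brighter with Ikaros at 48 h, lay between 5.63 and 5.92 at 2 h, between 5.58 and 5.73 at 6 h and between 5.65 and 5.69 in vector-ERt2 arrays. The groups overlapped, and the log2 changes were 0.06 ± 0.09 at 2 h and -0.01 ± 0.09 at 6 h. Flt3 lay between 5.40 and 5.57 at 2 h, between 5.27 and 5.42 at 6 h and between 5.26 and 5.58 in vector-ERt2 arrays. Its log2 changes of 0.03 ± 0.09 at 2 h and -0.11 ± 0.09 at 6 h did not pass either.

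Hhex had 9.05, 8.27 and 8.70 in Ikaros-ERt2 2 h arrays and 8.72, 8.67 and 8.35 in 6 h arrays, against 7.67, 7.76 and 8.04 in vector-ERt2 arrays. All 6 Ikaros-ERt2 arrays lay above all 3 vector arrays, and the 2 times overlapped. The log2 change was 0.85 ± 0.18 at 2 h, 1.80-fold, and 0.76 ± 0.18 at 6 h, 1.69-fold, and both passed the threshold. Between 6 h and 2 h it was -0.09 ± 0.18. The 2 calls of Hhex rested on single arrays and on which probe sets were tested. Without vector-ERt2 replicate 1, whose label fields disagree, its log2 change was 0.77 at 2 h (adjusted p = 0.154) and 0.68 at 6 h (adjusted p = 0.139).

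The call of Hhex at 6 h was also lost without Ikaros-ERt2 6 h replicate 1 (0.69), without 6 h replicate 2 (0.71) and without vector-ERt2 replicate 2 (0.72), and at the same log2 change with no filter (adjusted p = 0.0655) or with every probe set tested (adjusted p = 0.0716). That of Hhex at 2 h was lost as well without Ikaros-ERt2 2 h replicate 1 (0.66) or replicate 3 (0.84), without either 6 h replicate 1 or 2 (0.85 each), and without vector-ERt2 replicate 2 (0.82) or 3 (0.96). With no filter, every probe set or only the 2 groups compared it was lost too, at adjusted p of 0.0782, 0.0849 and 0.0866. Lmo2 and Gfi1b kept their calls at 6 h under all 16 alternatives, with adjusted p up to 0.0115 for Lmo2 and 0.015 for Gfi1b. Without vector-ERt2 replicate 1 the log2 change at 6 h was -0.64 for Lmo2 and -0.61 for Gfi1b.

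**Figure D3:**
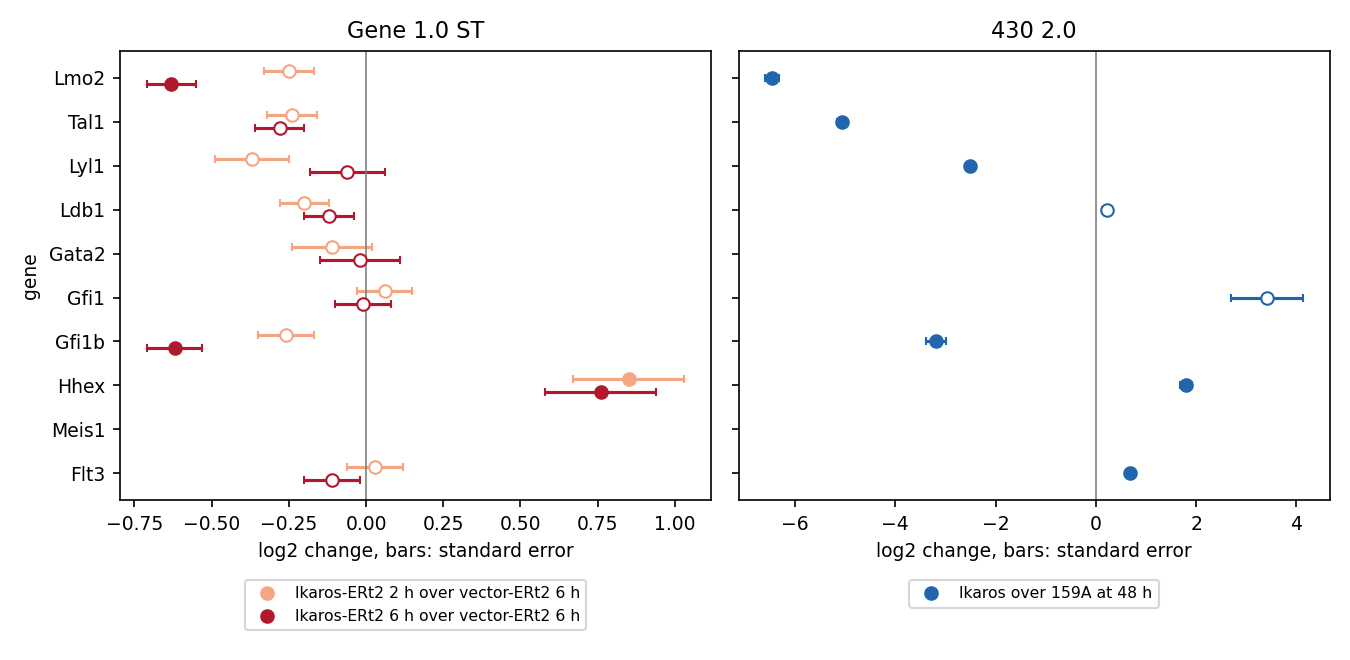
Log2 changes of the genes tested, with bars for the standard error, at 2 h and 6 h of Ikaros-ERt2 over vector-ERt2 on Gene 1.0 ST (left) and for Ikaros over 159A at 48 h on 430 2.0 (right, a wider scale). Meis1 was under the filter on both array types and Gata2 on 430 2.0, so they have no point there. Filled points passed the threshold and open points did not. Lmo2 and Gfi1b lie left of 0 and Hhex lies right of 0 in all 3 comparisons.

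Set side by side, the 48 h and 6 h changes had the same sign for Lmo2 (-6.45 and -0.63), Tal1 (-5.06 and -0.28), Gfi1b (-3.18 and -0.62) and Hhex (1.79 and 0.76). For Lyl1 they were -2.51 and -0.06, the second smaller than its SE of 0.12. The signs were opposite for Flt3 (0.68 and -0.11), Gfi1 (3.41 and -0.01) and Ldb1 (0.22 and -0.12), none of which passed at 6 h. As the genes were selected on both comparisons, shared signs are a description. The array types, controls and Ikaros constructs differ between the 2 times, so the sizes are not compared. Whether the 6 h changes differ from those at 48 h was not tested.

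Further genes were taken from lists of proteins that work with the 10. Of 25 partners listed (E proteins, GATA factors, LMO and LDB relatives, SSBP, ETO and RUNX proteins, ID proteins), 16 were tested on each array type. At 48 h 1 rose and 0 fell: Tcf3, which encodes the E proteins E12 and E47, averaged 10.45 in Ikaros and 9.60 in 159A arrays (log2 change 0.85 ± 0.11, adjusted p = 0.0424). At 2 h 0 of 16 passed. At 6 h 1 fell: Runx1, a core blood stem-cell factor, averaged 8.08 in Ikaros-ERt2 6 h and 8.79 in vector-ERt2 arrays (-0.71 ± 0.11, adjusted p = 0.00366), a call kept without any 1 of the 9 arrays. The medians of the list were 0.03 at 48 h, -0.01 at 2 h and 0.01 at 6 h. Over all genes tested 14.8% passed at 48 h, 1.86% at 2 h and 5.78% at 6 h. The counts of 16 partners are too small to be set apart from those shares, and no list was tested against them.

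Among corepressors through which GFI1 and GFI1B act, 3 of 13 tested passed at 48 h and 0 of 12 at 2 h or 6 h. Over all genes tested 14.8% passed at 48 h, 1.86% at 2 h and 5.78% at 6 h. Neither this list nor those that follow were tested against these shares. The LIM protein gene Ajuba fell, averaging 3.58 in Ikaros and 7.58 in 159A arrays (-3.99 ± 0.33, adjusted p = 0.0284). Zbtb17, encoding the zinc-finger protein MIZ1, rose by 0.82 ± 0.10, and Phf21a, a subunit of the LSD1 complex, rose by 0.80 ± 0.07. Among MEIS relatives and HOX cofactors, 1 of 8 tested passed at 48 h: Pbx3, a homeobox partner of MEIS proteins, averaged 11.85 in Ikaros and 9.67 in 159A arrays (2.18 ± 0.19, adjusted p = 0.0301). At 2 h and 6 h 0 of 11 passed.

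Of the FLT3 signalling list, 20 genes were tested at 48 h, of which 1 rose and 2 fell. The shares passing over all genes tested were 14.8% at 48 h, 1.86% at 2 h and 5.78% at 6 h. The kinase gene Syk rose by 1.96 ± 0.19, while the feedback inhibitors Socs3 (-1.91 ± 0.21) and Socs2 (-1.09 ± 0.07) fell. Of 21 tested on Gene 1.0 ST, Inpp5d, the lipid phosphatase SHIP1, fell by 0.54 at 2 h and by 0.53 at 6 h, and Stat5a, a signal-transducing transcription factor, fell by 0.46 at 6 h. The list had no other call at 2 h or 6 h, and these 3 were kept without any 1 of the 9 arrays.

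Of other stem and progenitor genes, 19 were tested at 48 h and 21 on Gene 1.0 ST. Over all genes tested 14.8% passed at 48 h, 1.86% at 2 h and 5.78% at 6 h. At 48 h Sox4, a transcription factor needed in early B cells, rose by 1.66 ± 0.11, and Etv6 (-1.75 ± 0.19) and Notch1 (-1.14 ± 0.09) fell. At 2 h Sox4 rose by 0.75 ± 0.11, the list's 1 call. At 6 h Spi1, encoding the ETS factor PU.1, rose by 0.38 ± 0.10, Smarca4 rose by 0.37 ± 0.10 and Etv6 fell by 0.37 on the log2 scale. Between 6 h and 2 h Sox4 fell by 0.63 (adjusted p = 0.03). Leaving out each of the 9 arrays in turn kept the 2 h call of Sox4 every time, but lost that of Spi1 in 6 cases (log2 change 0.30 to 0.44), of Etv6 in 7 (-0.42 to -0.29), of Smarca4 in 8 (0.31 to 0.48) and of Sox4 between 6 h and 2 h in 8 (-0.70 to -0.56). The stem-cell receptor gene Kit stayed near the floor at 48 h, averaging 2.6 in Ikaros and 2.19 in 159A arrays.

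Marker genes of other blood lineages were looked at because Lmo2, Tal1 and Gfi1b are also used in red-cell and platelet precursors. At 48 h 13 of 15 erythroid and megakaryocyte markers lay near the floor in both groups, Gata1 at 2.19 in each, and 0 of 3 tested passed. Their summed level, the sum of the list's values turned back from log2, was 146 to 148 in Ikaros and 124 to 145 in 159A arrays. The T-cell markers summed to 199 to 392 in Ikaros and 1196 to 1622 in 159A arrays, led by Cd28, at 7.66 and 10.36, which did not pass the threshold. Among these, 8 of 12 lay near the floor in each group, Cd3e and Cd3g at 2.19 in both. Of 6 T-cell markers tested 0 passed, 3 were above 0, and their median log2 change was -0.03. Whether the difference in this sum has a part in the Lmo2 and Tal1 values was not tested.

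Myeloid markers summed to 315 to 367 in Ikaros and 316 to 390 in 159A arrays, with 10 of 12 near the floor in each, Mpo at 2.19. Of 4 tested, the Fc receptor gene Fcgr3 rose, at least 30.4-fold, and the protease gene Prtn3 fell, averaging 3.50 in Ikaros and 8.12 in 159A arrays (-4.62 ± 0.31). Over all genes tested 14.8% passed at 48 h. On Gene 1.0 ST, 0 of 5 erythroid and megakaryocyte, 0 of 6 T-cell and 0 of 2 myeloid markers passed at 2 h or 6 h. Their summed levels overlapped between the 3 groups, except that the myeloid sum was 345 to 354 at 2 h, 329 to 340 at 6 h and 340 to 347 in vector-ERt2 arrays.

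B-lineage markers summed to 143104 to 152672 in Ikaros and 138295 to 148059 in 159A arrays, which overlapped. Of 14 tested at 48 h 4 rose and 2 fell, among them Rag1, part of the antigen-receptor recombinase (3.37 ± 0.12), and Igll1 (-5.92 ± 0.19) and Vpreb1 (-3.92 ± 0.36), which encode the surrogate light chain. The shares passing over all genes tested were 14.8% at 48 h, 1.86% at 2 h and 5.78% at 6 h. On Gene 1.0 ST 1 of 12 fell at 2 h, Vpreb1 (-0.52 ± 0.11), and 5 of 12 fell at 6 h, led by Vpreb1 (-1.17 ± 0.11), Igll1 (-1.07 ± 0.12) and Blnk (-0.94 ± 0.15). The 2 h call of Vpreb1 was lost in 7 of the 9 fits without 1 array (-0.58 to -0.44), and these 3 at 6 h were kept in all 9. Their summed level was 21179 to 22949 at 2 h, 17844 to 20411 at 6 h and 24181 to 25060 in vector-ERt2 arrays. That sum was led by Igll1, at 12.93, 12.12 and 13.19 in the same order of groups. At 6 h over vector 6 of the 12 genes were above 0, with a median of -0.06. Cd79b, part of the B-cell receptor (0.44 ± 0.08), and Ebf1, a B-lineage transcription factor (0.57 ± 0.11), rose at 6 h over 2 h, each call being lost in 8 of the 9 fits without 1 array. The part of these shifts in the Lmo2 values was not tested.

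The tested genes whose pattern over the 9 Gene 1.0 ST arrays was most like Lmo2, by the root mean square difference after centring each gene on its own mean, were Lrrn4 (0.078 log2 units), Kansl1l (0.083), Polr1a (0.088), Txnrd3 (0.089) and Adgrg1 (0.092). They were picked for likeness to Lmo2, and arrays of the same 3 groups enter both sides. Their log2 changes at 6 h over vector-ERt2 were -0.72, -0.59, -0.49, -0.57 and -0.65 in the same order of genes. At 48 h, on arrays the choice did not use, Lrrn4 (-2.81 ± 0.11, adjusted p = 0.0182) and Polr1a (-2.56 ± 0.15, adjusted p = 0.0227) fell with Ikaros. Kansl1l (-0.41), Txnrd3 (-0.83) and Adgrg1 (-1.93) were below 0 there and did not pass. Other Polr1a probe sets changed less at 48 h, by -1.28 and -1.29, or lay near the floor in both groups (-0.05 and -0.01). With every probe set tested in limma, neither Lrrn4 (adjusted p = 0.0637) nor Polr1a (adjusted p = 0.0876) passed at 48 h.

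**Figure D4:**
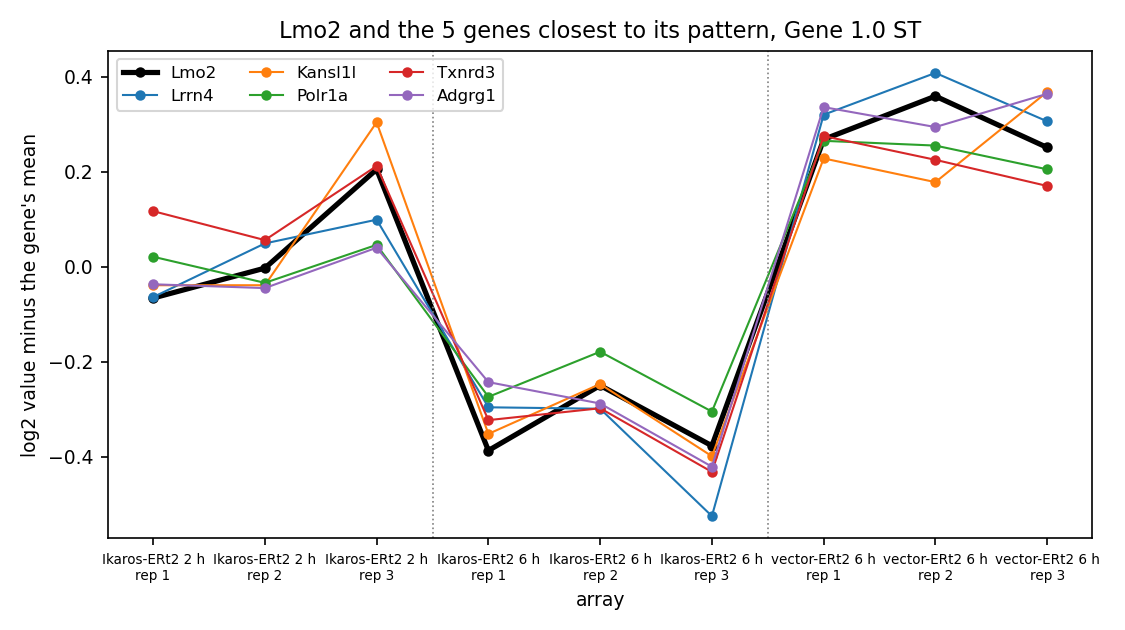
Log2 value of Lmo2 (black) and of the 5 genes closest to its pattern, each minus its own mean, on each of the 9 Gene 1.0 ST arrays. For all 6 genes the 6 h arrays lie below the others, and the mean of the vector-ERt2 arrays is the highest of the 3 group means.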

How the data were processed

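Total RNA of B3 cells was measured on 13 Affymetrix arrays, 4 of the 430 2.0 type and 9 of Gene 1.0 ST. The authors deposited log2 values, one for each probe set on every array. Per the submitters' processing notes GCRMA, RMA, affy and limma were used by the authors, and which tool served which array type is not given in the sources used here. Values within 0.01 of the lowest one made up 36.7% on 430 2.0.

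Groups come from the sample titles. The labels speak of biological replicates without naming separate cultures. The p-values therefore cover only the variation among these samples, which may be technical, and precision is limited by how few arrays there are. The members, the lists and the rule for named genes were chosen with earlier results of these data known. That rule took all members, Ikzf1, up to 3 called genes per list and comparison, and the 5 genes most like Lmo2.

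Each array type was fitted alone in R 4.3.3 by lmFit and eBayes of limma 3.58.1, with two-sided p-values adjusted by Benjamini-Hochberg over all genes tested and a threshold of 0.05. The 3 groups on Gene 1.0 ST shared 1 fit, and 4 comparisons were made. Of several probe sets with 1 symbol, the one with the highest mean stood for a gene. A filter then removed the dimmest 40% of genes, and 10916 and 11963 remained to be tested. Errors after a log2 change are standard errors. The procedure was tested on simulated data. Arrays of a group correlated over probe sets at 0.987 to 0.995 (430 2.0) and 0.989 to 0.994 (Gene 1.0 ST, Pearson). Arrays of different groups correlated at 0.967 to 0.973 on 430 2.0 and at 0.989 to 0.993 on Gene 1.0 ST.

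Replicate numbers were checked for pairing through the correlation of deviations from the group means. Arrays with the same number had r of 0.119, 0.128 and 0.235 between Ikaros-ERt2 2 h and vector-ERt2. Between Ikaros-ERt2 2 h and 6 h it was 0.244, -0.258 and -0.17, while 2 h replicate 2 and 6 h replicate 3 had 0.339. Values this small do not settle whether arrays were paired. The main fit took no replicate block, and a block changed no member's call at 2 h over vector (263 genes called). Between 6 h and vector-ERt2, r was -0.096 to 0.106. Alternatives were no filter, every probe set, quantile normalization again, arrays centred on their medians, eBayes with trend and robust, a replicate block, only the 2 groups compared, and leaving out each array. The fits without 1 array were read for called genes of the lists after their values were seen.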

Additional observations from a re-analysis of the deposited data

How the results depend on the processing

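The 48 h calls depended most on the processing. Against 1621 genes and 6 of the 10 genes called, no filter gave 185 genes and 3 members, every probe set 95 genes and 1 member (Tal1, adjusted p = 0.0498), and the replicate block 0 genes (4493 at an unadjusted p under 0.05) and 0 members. Leaving out 1 array gave 0 genes (2165 to 3668 unadjusted) and 0 members with limma. Arrays with the same number had deviations that correlated at 0.572 there, in only 2 pairs, which cannot show pairing. At 2 h over vector (223 genes, 1 member), no filter and every probe set each gave 141 genes and 0 members, only the 2 groups compared 0 members, and leaving out 1 array 82 to 269 genes and 0 to 1 members. Leaving out 1 array gave 335 to 714 genes at 6 h over vector (692 genes). For 6 h over 2 h, 108 genes and 0 members were called, and 1629 genes and 3 members had an unadjusted p under 0.05. There, no filter gave 59 genes, every probe set 56, centring 61, only the 2 groups compared 0 (1301 unadjusted) and leaving out 1 array 9 to 149. Quantile normalization again gave 1 member, Lmo2 (adjusted p = 0.042), whose adjusted p ran up to 0.211 over the 16 alternatives. The replicate block changed no member's call on Gene 1.0 ST. The causes were not tested.

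Only changes that had not passed the threshold turned their sign. Gata2 at 6 h over vector came to 5e-04 after quantile normalization and Gfi1 to 0.0108, or 0.0103 after centring. With 1 array left out, the ranges at 2 h over vector were -0.0333 to 0.114 for Gfi1 and -0.0746 to 0.0858 for Flt3. They were, at 6 h over vector, -0.1426 to 0.0594 for Lyl1, -0.1867 to 0.0914 for Gata2 and -0.0459 to 0.0282 for Gfi1. For 6 h over 2 h they were -0.0857 to 0.0165 for Tal1, -0.0808 to 0.1972 for Gata2, -0.1217 to 0.0256 for Gfi1 and -0.2967 to 0.094 for Hhex. Genes near the 430 2.0 floor (Gata2, Meis1, and Lmo2 and Tal1 in Ikaros arrays) have no exact level.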
